A study of Mus musculus with 6 samples.

Results

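The miR-106a-363 cluster is an X-linked relative of the miR-17-92 cluster, and 6 of its mature strands were followed here across 6 libraries of small RNA from mouse thymus. The members were taken by name from the deposited table of read counts as strands specific to this cluster: mmu-miR-106a-5p, mmu-miR-18b-5p, mmu-miR-20b-5p, mmu-miR-20b-3p, mmu-miR-363-3p and mmu-miR-363-5p. All 6 are among the 1390 mature miRNAs listed there. The irradiated group was 3 C57BL wild-type mice given a single 6 Gy X-ray dose (800 cGy/min, distance 40 cm), with the thymus taken 24 h later. The control group was 3 mice of the same strain that were not irradiated. All were 5 weeks old, each library is labelled as 1 replicate of its group, and the sample is whole thymus, so every cell type of the organ contributes.

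A miRNA is cut from a hairpin as a pair of strands named 5p and 3p, and usually 1 of the pair is loaded into the silencing complex in preference to the other. Bases 2 to 8 of the loaded strand, the seed, choose the messenger RNAs it represses. The miR-17-92 family arose by duplication: miR-17-92 itself, the X-linked miR-106a-363 cluster and miR-106b-25, which sits inside the replication-licensing gene Mcm7, carry closely related strands with shared seeds. In lymphocytes miR-17-92 restrains the death factor Bim and favours proliferation and survival. The X-linked copy is known from retroviral insertions in mouse T-cell lymphomas and from early embryonic cells.

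The cluster lies on the minus strand of chromosome X in GRCm38.p6, chrX:52741693-52742567, a span of 875 bases that holds 6 hairpins. In the direction of transcription these are Mir106a, Mir18b, Mir20b, Mir19b-2, Mir92-2 and Mir363. The first hairpin overlaps the last 5 bases of the non-coding transcript Kis2 (52742563 to 52744960) in GENCODE M21, and the other hairpins lie outside any other annotated gene. The coordinates and sequences are RefSeq's, whose miRNA table held 5 of the 6 members with the same sequence as the deposited file. The counts may rest on another build, which the sources used here do not name.

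The members are printed 5′ to 3′ with the seed in capitals, because the seed decides which paralogues each can stand in for and because read assignment rests on the remaining letters. Each is followed where it has one by the paralogue it was compared with.
miR-106a-5p: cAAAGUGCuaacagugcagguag
miR-20b-5p: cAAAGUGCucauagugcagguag
miR-17-5p: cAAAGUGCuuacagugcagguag
miR-20a-5p: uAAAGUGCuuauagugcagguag
miR-106b-5p: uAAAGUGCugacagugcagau
miR-93-5p: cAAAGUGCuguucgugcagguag
miR-18b-5p: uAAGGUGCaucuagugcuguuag
miR-18a-5p: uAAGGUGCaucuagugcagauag
miR-363-3p: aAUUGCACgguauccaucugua
miR-92a-3p: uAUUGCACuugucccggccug
miR-25-3p: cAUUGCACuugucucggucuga
miR-363-5p: cAGGUGGAacacgaugcaauuu
miR-20b-3p: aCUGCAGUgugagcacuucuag
miR-20a-3p: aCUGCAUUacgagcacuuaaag

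In all, 3 seeds cover the guide strands among the members. MiR-106a-5p and miR-20b-5p share AAAGUGC with miR-17-5p, miR-20a-5p, miR-106b-5p and miR-93-5p. MiR-18b-5p shares AAGGUGC with miR-18a-5p, and miR-363-3p shares AUUGCAC with miR-92a-3p and miR-25-3p. Outside the seed the distances differ. Counting positions from the 5′ end and writing the member's base first, miR-106a-5p differs from miR-17-5p at 1 of 23 bases (A10U). MiR-18b-5p differs from miR-18a-5p at 2 of 23 bases (U18A and U20A), and miR-20b-5p from miR-20a-5p also at 2 (C1U and C10U). MiR-106a-5p and miR-20b-5p differ from each other at 2 bases (A10C and C12U). MiR-363-3p is far easier to tell apart, with 11 of 21 compared bases different from miR-92a-3p. No source used here says how reads were assigned among such close sequences.

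The libraries held 7730641 to 9287017 counts, and 519 miRNAs passed the low-count filter and were tested. All levels below are CPM scaled by trimmed-mean (TMM) factors, that is, counts relative to the effective library size, with no length term; the members are 22 or 23 bases long. A count of 0 allows up to 3 counts, which is 0.278 to 0.428 CPM depending on the library and covers counting error only, since the reads carry no molecular identifiers. Changes are log2 fold changes of irradiated over control with an SE from edgeR's quasi-likelihood test. Its p-values were adjusted by the Benjamini-Hochberg method over the 519 miRNAs, and the threshold was 0.05. The p-values set the group difference against the spread within these groups of 3 and 3 libraries, with each miRNA's spread moderated by that of all tested miRNAs.

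All 6 members were lower after irradiation, and the geometric mean of their summed level was 30.8-fold lower. The 6 strands together had 117, 32.0 and 75.6 CPM in irradiated replicates 1, 2 and 3, against 1986, 1883 and 2201 CPM in control replicates 1, 2 and 3. The means were 74.8 ± 42.5 CPM in irradiated thymus and 2024 ± 162 CPM in control thymus (SD, n = 3 each). The mean of the log2 sums differed by -4.94, and by -4.22 without irradiated replicate 2. The groups did not overlap, and the exact two-sided permutation p was 0.1, the smallest that 3 against 3 libraries allow. As a share of all counts the members made up 0.0103%, 0.00314% and 0.00767% in irradiated replicates 1, 2 and 3, against 0.163%, 0.263% and 0.218% in control replicates 1, 2 and 3.

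In the test of each miRNA, 6 of 6 members were lower and 0 were higher. Of these, 4 would have passed the low-count filter through either group. MiR-18b-5p and miR-20b-3p passed it through the control libraries alone, so being tested already favoured a fall. Their calls and adjusted p-values are therefore listed without being taken as support. The counts of 6 and the members' median of -4.81 include them. Of all tested miRNAs, 33.5% were called lower and 27.7% higher, 61.3% in either direction. The irradiated values stayed under every control value for each of the 6 members, and for 36.6% of all tested miRNAs. The median log2 change was -4.81 over the members and 0.01 over all tested miRNAs. Only 16 of the 519 had a change as low as or lower than the smallest member change, and 6 of those 16 are the members. In the authors' deposited table all 6 are also lower, with log2 fold changes from -5.05 (miR-18b-5p) to -4.04 (miR-106a-5p), and adjusted p-values of at most 4.61e-06. That table calls lower 22.3% of the 741 miRNAs for which it gives an adjusted p, and it was made from the same libraries.

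**Figure D1:**
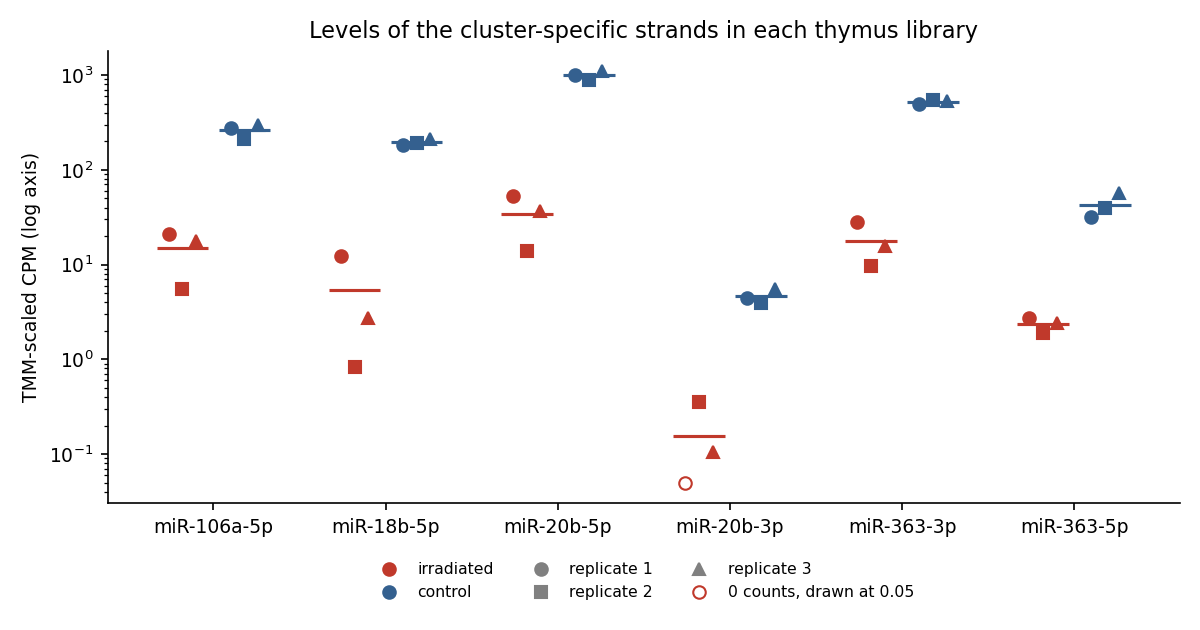
Level of each cluster-specific strand in each library, in TMM-scaled CPM on a log axis. Irradiated libraries (red, left of each pair) and control libraries (blue) are marked by replicate, the bar is the group mean, and the open circle is a count of 0. Every irradiated point lies below every control point of the same strand, and irradiated replicate 2 is the lowest irradiated library for all strands but miR-20b-3p.

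MiR-20b-5p and miR-106a-5p carry the miR-17 seed and are the cluster's main strands of that group. MiR-20b-5p was the most abundant member in both groups. It had 52.5, 13.8 and 36.6 CPM in irradiated replicates 1, 2 and 3, against 999.8, 895 and 1095 CPM in control replicates 1, 2 and 3. Its log2 change was -4.86 ± 0.48 (SE; edgeR adjusted p 4.2e-05). The irradiated libraries were widely spread, yet the highest was far under the lowest control.

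MiR-106a-5p, the first strand of the transcript, had 21.0, 5.49 and 17.8 CPM in irradiated replicates 1, 2 and 3, against 273, 213 and 300.4 CPM in control replicates 1, 2 and 3. It fell by 4.15 ± 0.48 (SE) on the log2 scale (edgeR adjusted p 8.4e-05), close to miR-363-5p; leaving out irradiated replicate 2 gave -3.54. Irradiated replicates 1 and 3 were close together and replicate 2 was again low.

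MiR-18b-5p carries the miR-18 seed; its relative miR-18a is known in human cells as a repressor of the oestrogen receptor and of connective tissue growth factor. It had 12.4, 0.836 and 2.76 CPM in irradiated replicates 1, 2 and 3, against 185, 193 and 214 CPM in control replicates 1, 2 and 3. Its log2 change of -5.22 ± 0.89 (SE; edgeR adjusted p 0.0021) had the largest SE of the members. The 3 irradiated counts behind it were 95, 7 and 26 reads, and replicate 1 stood apart from the other two. Without irradiated replicate 1 the log2 change was -6.73, and without irradiated replicate 2 it was -4.51.

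MiR-363-3p carries the seed of miR-25 and miR-92a and closes the cluster. It had 28.3, 9.55 and 15.8 CPM in irradiated replicates 1, 2 and 3, against 492, 540 and 529 CPM in control replicates 1, 2 and 3. Its log2 change was -4.86 ± 0.43 (SE; edgeR adjusted p 2.0e-05). The control libraries averaged 520 ± 24.8 CPM (SD, n = 3), the smallest SD relative to the mean among the 6.

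The 2 remaining members are the less abundant strands of their hairpins. MiR-363-5p had 2.74, 1.91 and 2.44 CPM in irradiated replicates 1, 2 and 3, against 31.7, 39.6 and 57.4 CPM in control replicates 1, 2 and 3 (log2 change -4.18 ± 0.36 SE; edgeR adjusted p 2.0e-05). Unlike the other strands, its irradiated values lay close together, while its control values varied. MiR-20b-3p was near the limit of counting, with 0, 3 and 1 reads in irradiated replicates 1, 2 and 3, against 31, 42 and 45 reads in control replicates 1, 2 and 3. Its fitted log2 change was -4.75 ± 0.63 (SE, edgeR adjusted p 1.6e-04). The change was -5.80 without irradiated replicate 2, the library with most of its irradiated reads, and -4.29 without irradiated replicate 1. By summed counts miR-20b-3p was 29.0-fold lower after irradiation, with a 95% interval of 11.02 to 108 for counting error only.

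The order of the mean levels was the same in both groups, though not in every library: miR-20b-5p, miR-363-3p, miR-106a-5p, miR-18b-5p, miR-363-5p, miR-20b-3p. In irradiated thymus each strand overlapped its next neighbour in that order except miR-363-5p and miR-20b-3p. In control thymus only miR-106a-5p and miR-18b-5p overlapped.

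Within the cluster, miR-20b-5p made up 45.5% ± 2.65 of the members' counts in irradiated libraries and 49.2% ± 1.503 in control libraries (SD, n = 3 each). MiR-363-3p made up 25.0% ± 4.51 in irradiated libraries and 25.8% ± 2.48 in control libraries. MiR-106a-5p made up 19.6% ± 3.50 in irradiated libraries and 12.9% ± 1.38 in control libraries, with no overlap. MiR-18b-5p made up 10.6%, 2.61% and 3.65% in irradiated replicates 1, 2 and 3, against 9.31%, 10.2% and 9.72% in control replicates 1, 2 and 3. Only irradiated replicate 1 had a miR-18b-5p share near the control values. These shares were not tested one by one; the ratios of strands were.

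Log2 ratios of 2 strands within a library depend on that library's scaling factor only through the prior count, which matters for strands with few reads. They were formed for 13 pairs and compared between groups with limma on log2 CPM (prior count 2), with p-values adjusted over the 13. Between neighbouring guide strands of the cluster no difference passed. The ratio of miR-20b-5p to miR-363-3p was 0.87 ± 0.34 in irradiated and 0.93 ± 0.18 in control libraries (SD, n = 3 each), a difference of -0.06 with a 95% interval of -1.12 to 0.99 and a limma adjusted p of 0.90. The ratio of miR-18b-5p to miR-20b-5p differed by -0.80 (95% interval -2.30 to 0.70, limma adjusted p of 0.320). That of miR-106a-5p to miR-18b-5p differed by 1.52 (95% interval -0.96 to 4.00, limma adjusted p of 0.270), though its groups did not overlap (exact two-sided permutation p of 0.1). The last pair passed without irradiated replicate 1, at 2.10 with a limma adjusted p of 0.0029, and its adjusted p ranged from 0.0029 to 0.563 when each library was left out in turn. These intervals are wide, and a p above the threshold does not show that the members changed alike.

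**Figure D2:**
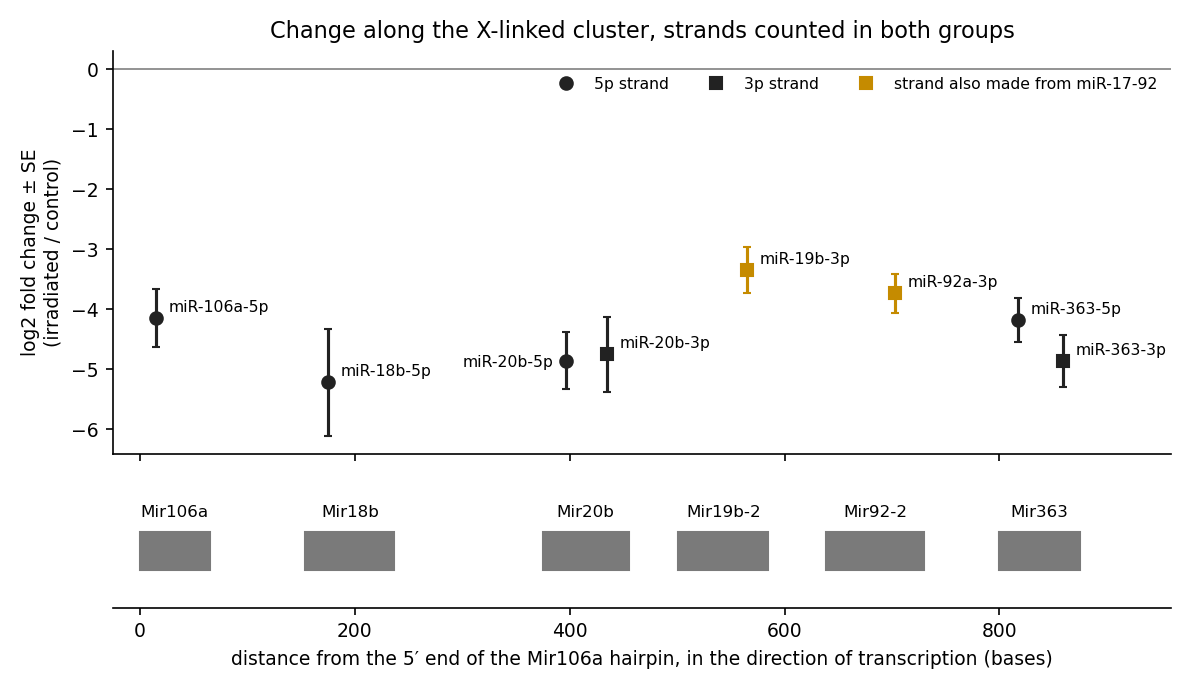
Log2 fold change of irradiated over control with its SE (upper panel) against the position of each strand along the cluster in bases (lower panel, hairpins to scale). Members are black and lie between -5.22 and -4.15. The strands also made from miR-17-92 are ochre, at -3.35 for miR-19b-3p and -3.74 for miR-92a-3p.

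The 2 hairpins with both strands among the members are printed with the mature strands in capitals, 5p first, because the strand balance is read from them. They are RefSeq's Mir20b (80 bases, chrX:52742113-52742192, minus strand) and Mir363 (75 bases, chrX:52741693-52741767, minus strand).
Mir20b: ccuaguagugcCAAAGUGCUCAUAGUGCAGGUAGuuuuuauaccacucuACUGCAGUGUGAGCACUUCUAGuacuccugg
Mir363: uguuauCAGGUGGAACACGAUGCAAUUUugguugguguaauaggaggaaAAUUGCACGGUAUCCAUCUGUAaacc

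The 2 hairpins use opposite arms, the 5p strand of Mir20b and the 3p strand of Mir363, and did so in every library. MiR-363-5p made up 8.82%, 16.7% and 13.4% of the hairpin's counts in irradiated replicates 1, 2 and 3, against 6.04%, 6.84% and 9.79% in control replicates 1, 2 and 3. The exact binomial 95% intervals were 5.545% to 13.2%, 9.84% to 25.7% and 8.67% to 19.4% in irradiated replicates 1, 2 and 3. The groups overlap at irradiated replicate 1 and control replicate 3. The log2 ratio of miR-363-3p to miR-363-5p differed by -0.96 (95% interval -1.82 to -0.09) with a limma adjusted p of 0.0505, which missed the threshold by a small margin. The adjusted p was 0.0054 without irradiated replicate 1 and 0.0497 without control replicate 3, and it ranged up to 0.189 when other libraries were left out.

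MiR-20b-3p made up 0%, 2.52% and 0.289% of the Mir20b counts in irradiated replicates 1, 2 and 3, against 0.440%, 0.434% and 0.502% in control replicates 1, 2 and 3. The irradiated shares rest on 4 reads in all, and 0 of 402 reads in replicate 1 allows a share of up to 0.913% (exact binomial 95% limit). The ratio of miR-20b-5p to miR-20b-3p differed by -1.31 (95% interval -2.60 to -0.02), and the limma adjusted p was 0.0675. This difference depended on the prior count: it was -0.19 with a prior count of 0.5 and -2.19 with 5. Without irradiated replicate 1 the difference was -2.01 and passed, with a limma adjusted p of 1.1e-04.

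Each of the other 4 strands that come from this cluster alone was scarce. MiR-18b-3p had 0 reads in all 3 irradiated libraries and 16, 12 and 13 reads in control replicates 1, 2 and 3. It was at least 13.4-fold lower after irradiation against a floor of 3 counts over the group. The exact 95% limit, which also covers the counting error of the control reads, was 10.4-fold. It passed the low-count filter through the control libraries alone, so its test is not given. MiR-92a-2-5p had 1 read in irradiated libraries and 41 in control libraries, a 40.2-fold difference with a 95% interval of 6.83 to 1628 for counting error only, and it did not pass the low-count filter. In the authors' deposited table it has a log2 fold change of -5.12 with an adjusted p of 0.0020. MiR-106a-3p had 0 irradiated and 10 control reads, and miR-19b-2-5p had 0 irradiated and 5 control reads, and neither was tested. MiR-92a-2-5p and miR-19b-2-5p are passenger strands of the hairpins whose abundant strands, miR-92a-3p and miR-19b-3p, are also made from miR-17-92.

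Set against its paralogues within a library, the X-linked copy was lower relative to the related strand in all 8 pairs, and 7 passed the limma threshold. Of those 7, the pair of miR-363-3p with miR-92a-3p overlapped between groups. The pairs of miR-18b-5p and of miR-20b-3p each hold a member that passed the low-count filter through the control libraries alone. Their place in these counts is not taken as support. Of the 8 tested strands of miR-17-92 (10 listed) 8 were lower, with log2 changes from -3.67 to -2.03 and a median of -2.56. All 6 strands of miR-106b-25 were lower, from -3.33 to -1.39 with a median of -2.68. MiR-18a-3p, miR-20a-3p and miR-92a-1-5p of miR-17-92 and miR-25-5p of miR-106b-25 also passed the low-count filter through the control libraries alone. In irradiated replicate 2 they had 7, 3, 4 and 1 reads. Being tested therefore favoured a fall for them, and the counts and medians of both clusters include them. Over all tested miRNAs 33.5% were called lower. No tested strand of either cluster changed as much as the least changed member, but the difference itself is tested in the within-library ratios. Untested miR-19b-1-5p of miR-17-92 had 1, 0 and 0 reads in irradiated replicates 1, 2 and 3. It had 8, 23 and 15 reads in control replicates 1, 2 and 3. Its irradiated mean was 2.55% of its control mean, below that of every member (2.70% to 5.64%). MiR-19a-5p of miR-17-92, also untested, was at 8.04%.

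**Figure D3:**
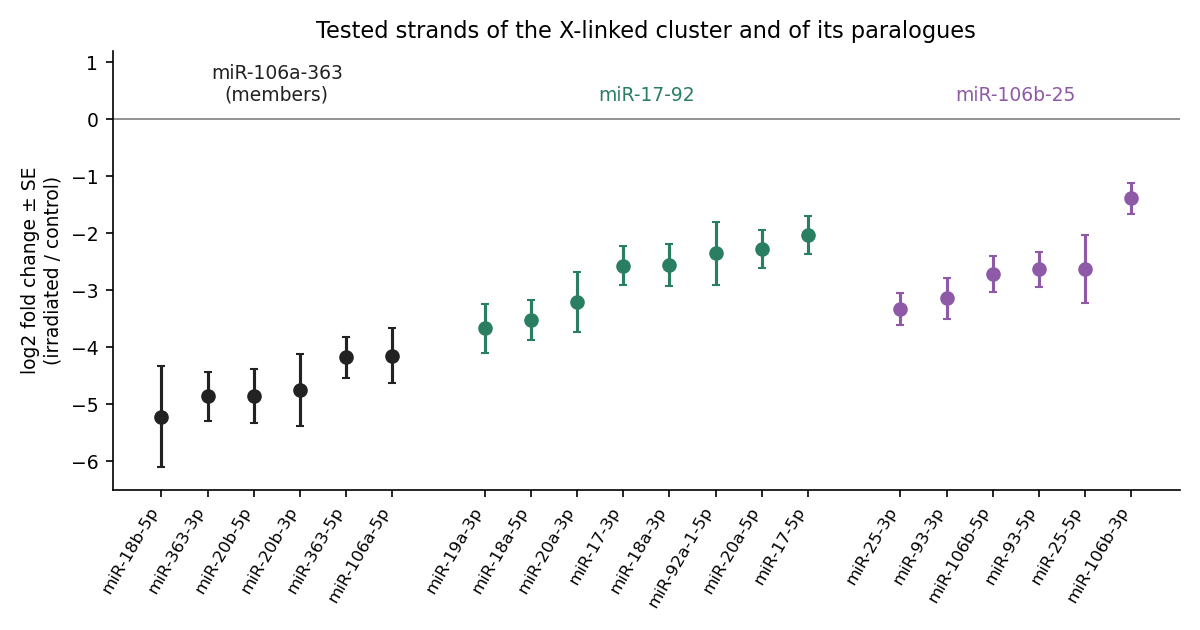
Log2 fold change of irradiated over control with its SE for each tested strand of miR-106a-363 (black, members only), miR-17-92 (green) and miR-106b-25 (purple). Members run from -5.22 to -4.15, the miR-17-92 strands from -3.67 to -2.03 and the miR-106b-25 strands from -3.33 to -1.39.

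In the miR-17 seed group the X-linked strands were lower relative to their near-identical relatives. MiR-106a-5p had 9.81%, 5.23% and 8.18% as many reads as miR-17-5p in irradiated replicates 1, 2 and 3, against 32.6%, 36.4% and 38.8% in control replicates 1, 2 and 3. The log2 ratio differed by -2.23 ± 0.49 (SE), with a limma adjusted p of 0.0013. MiR-20b-5p had 11.9%, 6.05% and 7.07% as many reads as miR-20a-5p in irradiated replicates 1, 2 and 3, against 52.7%, 54.3% and 49.6% in control replicates 1, 2 and 3. This log2 ratio differed by -2.70 ± 0.45 (SE), with a limma adjusted p of 3.4e-04.

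Against the miR-106b-25 strands of the same seed the differences were also negative. MiR-20b-5p relative to miR-93-5p differed by -2.36 ± 0.39 (SE), with a limma adjusted p of 7.5e-04. MiR-106a-5p relative to miR-106b-5p differed by -1.53 ± 0.42 (SE), with a limma adjusted p of 0.0097. The pair with miR-106b-5p fell short without control replicate 3 (-1.45, limma adjusted p of 0.0537), and its adjusted p ranged from 0.0011 to 0.0537 with each library left out in turn. For all 4 of these pairs every irradiated ratio lay below every control ratio, with an exact permutation p of 0.1.

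For the miR-18 seed the X-linked strand was the less abundant of the pair in irradiated thymus and the more abundant one in control thymus. MiR-18b-5p had 70.9%, 8.86% and 32.1% as many reads as miR-18a-5p in irradiated replicates 1, 2 and 3, against 127%, 145% and 166% in control replicates 1, 2 and 3. The log2 ratio differed by -2.28 ± 0.61 (SE), with a limma adjusted p of 0.0081. Leaving out irradiated replicate 1 gave -2.90 and leaving out replicate 2 gave -1.57, both past the threshold. MiR-18b-5p passed the low-count filter through the control libraries alone, so these calls are not taken as support. All 3 irradiated ratios were below 1 and all 3 control ratios above 1, though the irradiated ones spanned a wide range.

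For the miR-25 and miR-92 seed the X-linked strand was a small fraction throughout. MiR-363-3p had 2.59%, 0.609% and 1.02% as many reads as miR-25-3p in irradiated replicates 1, 2 and 3, against 2.97%, 4.62% and 3.80% in control replicates 1, 2 and 3. This ratio differed by -1.65 ± 0.47 (SE), with a limma adjusted p of 0.0081. Relative to miR-92a-3p the difference was -1.31 ± 0.53 (SE), with a limma adjusted p of 0.0331, and here irradiated replicate 1 and control replicate 1 were alike, at 6.14% and 6.09%. That call was lost without irradiated replicate 2 (-0.94, limma adjusted p of 0.195), irradiated replicate 3 (-1.32, 0.0779), control replicate 2 (-1.03, 0.148) or control replicate 3 (-1.27, 0.119). With each library left out in turn its limma adjusted p ran from 0.0066 to 0.195. Part of the miR-92a-3p reads may come from the X-linked Mir92-2, and the split between its 2 genes was not analysed here.

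MiR-20b-3p relative to miR-20a-3p differed by -1.13 (95% interval -2.32 to 0.06, limma adjusted p of 0.0810). Both strands had 4 or fewer reads in each irradiated library, and the interval holds both no difference and a large one.

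**Figure D4:**
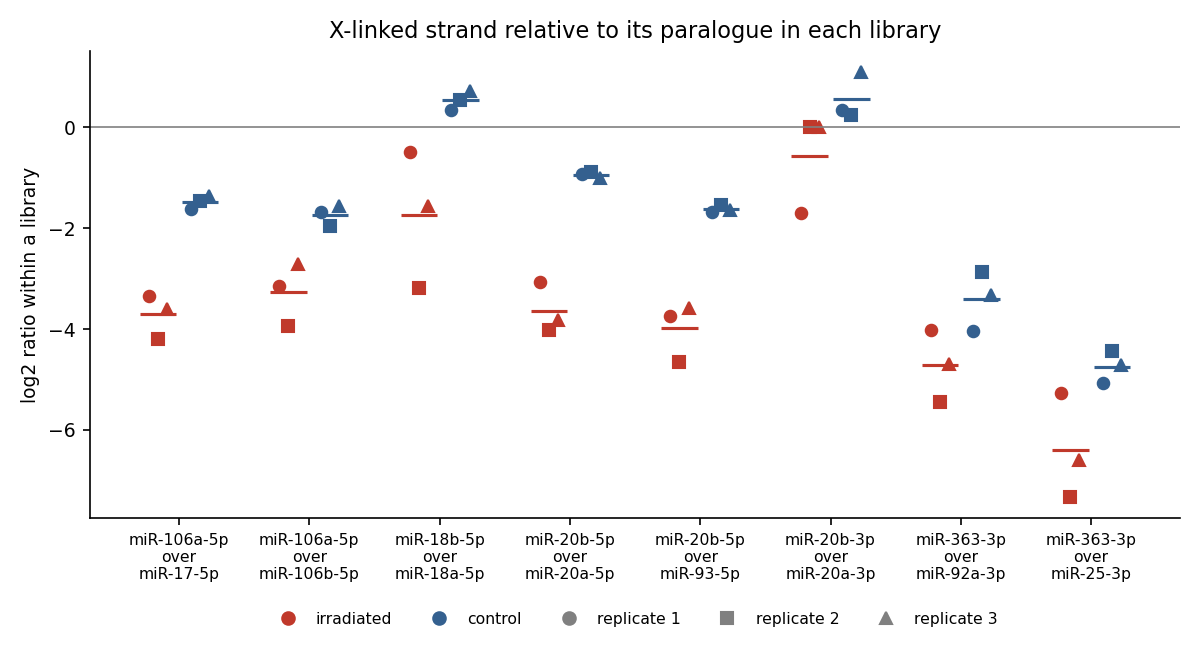
Log2 ratio of each X-linked strand to a paralogue within each library, irradiated in red to the left of control in blue, with group means as bars and replicates as symbols. Of the 8 pairs, 7 show no overlap between groups, and the pair of miR-363-3p with miR-92a-3p overlaps at replicate 1 of both groups.

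Counted by seed among these 3 clusters, the cluster-specific X-linked guides supplied a smaller part of the miR-17, miR-18 and miR-25/92 seed groups after irradiation. MiR-106a-5p and miR-20b-5p together were 4.55%, 2.43% and 4.04% of the counts of the 6 strands with the miR-17 seed in irradiated replicates 1, 2 and 3, against 15.7%, 16.4% and 16.1% in control replicates 1, 2 and 3. MiR-18b-5p was 24.6% ± 16.7 of its pair in irradiated libraries and 59.2% ± 3.15 in control libraries (SD, n = 3 each). MiR-363-3p was 1.02% ± 0.682 of its group of 3 strands in irradiated libraries and 2.66% ± 0.694 in control libraries. In that group miR-92a-3p was counted outside the share, although part of its reads may come from the X-linked Mir92-2. Each share had an exact two-sided permutation p of 0.1, also after adjustment over the 3 shares. The control libraries were close together for the miR-17 and miR-18 seeds, and for the miR-18 seed the irradiated libraries were far apart.

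**Figure D5:**
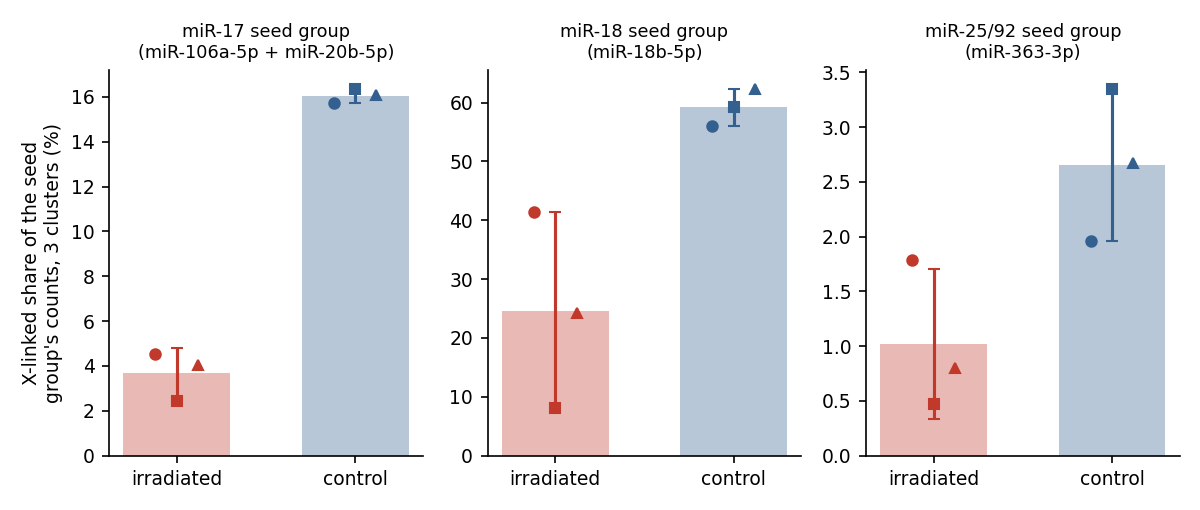
Share of each seed group's counts (strands of the 3 clusters only, percent) that came from guide strands specific to the X-linked cluster. Irradiated is left of control, with bars as means, error bars as SD (n = 3) and symbols as replicates. MiR-92a-3p, which the X-linked Mir92-2 also makes, is counted outside the share. The miR-17 seed share is 2.43% to 4.55% in irradiated and 15.7% to 16.4% in control libraries, with no overlap in any of the 3 panels.

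Of the 5 miRNAs outside the 3 clusters whose profile was nearest to the members over the 6 libraries, 3 are on the thymocyte and lymphoid list. Likeness was the root mean square difference between log2 CPM centred on its mean over the 6 libraries and the members' mean profile, among 295 miRNAs with at least 10 CPM on average. MiR-181a-5p, which tunes the antigen-receptor response of immature T cells, came first at 0.27, followed by miR-296-3p (0.38), miR-181a-1-3p (0.41), miR-181b-5p (0.47) and miR-130b-5p (0.51). Among the members themselves the same measure ran from 0.21 for miR-363-3p to 0.91 for miR-20b-3p. MiR-363-3p was the one member nearer to the mean profile than miR-181a-5p. Each member is part of that mean profile and miR-181a-5p is not, so their distances are not strictly alike. The likeness is a description over 6 libraries that share a large difference between groups.

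The markers of thymocytes and other lymphoid cells moved with the cluster. Over all tested miRNAs 33.5% were called lower. Of 8 listed miRNAs 6 were lower and 2 did not pass (miR-150-5p and miR-342-3p, which mark mature lymphocytes), and none was at 0 in the 6 libraries. Their summed level was 7107 to 11688 CPM in irradiated libraries, against 105176 to 173246 CPM in control libraries. As a percentage of this list, the members' sum was 1.00%, 0.450% and 0.792% in irradiated replicates 1, 2 and 3, against 1.26%, 1.79% and 1.27% in control replicates 1, 2 and 3. That is a log2 difference of -1.002 (exact two-sided permutation p of 0.1), compared with -4.94 for the level itself. The list's sum is weighted by abundance, and its make-up differed between groups. MiR-181a-5p averaged 94375 CPM in control and 3325 CPM in irradiated libraries, and miR-142a-5p 8849 and 3388 CPM. The list is mixed: miR-128-3p (log2 change -5.70), miR-181b-5p (-5.39) and miR-181a-1-3p (-5.32) had lower values than the members' median of -4.81, and miR-181a-5p was at -4.83. MiR-142a-3p was at -2.86, miR-142a-5p at -1.39, miR-342-3p at -0.53 and miR-150-5p at -0.31. In whole tissue, fewer cells of a type and less RNA per cell cannot be told apart.

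Markers of other tissues varied between the irradiated libraries. The muscle list (miR-1a-3p, miR-133a-3p and miR-206-3p, of which 3 of 3 were higher) summed to 602, 20116 and 13395 CPM in irradiated replicates 1, 2 and 3, against 202 to 480 CPM in control libraries. The erythroid list (2 of 3 higher) summed to 604, 5028 and 1982 CPM in irradiated replicates 1, 2 and 3, against 480 to 724 CPM in control libraries. Irradiated replicate 2, highest in both lists, was the lowest in 5 of the 6 members. Their part in the members' decrease was not tested. With replicate 1 as the only irradiated library, a choice made after seeing the data, the log2 changes of 5 members ran from -4.05 (miR-20b-5p) to -3.44 (miR-106a-5p). MiR-20b-3p had 0 reads in that library. A lone library gives no measure of spread in its group, so no call is drawn from it. Stromal and vascular markers were higher for 4 of 6, epithelial markers for 4 of 5 and myeloid markers for 0 of 2, and none was at 0. Over all tested miRNAs 27.7% were called higher.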

How the data were processed

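Small-RNA libraries came from whole thymus of 3 irradiated and 3 control mice. Per the labels' protocols, RNA was extracted with TRIzol, libraries were made with NEBNext kits, and the molecule is given as polyA RNA. The deposited table holds raw read counts for each mature miRNA, per the file headers. It also holds the authors' log2 fold change and p-values, raw and adjusted; the submitters' processing notes name DESeq2 1.10.1. No source used here names an aligner, a counter or a build. Another 6 columns of counts lack a description in the labels and stayed out. Of 1390 miRNAs, 146 had no count in the 6 libraries. Members and lists were chosen with earlier results of these data known.

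Counts were tested over the whole table with edgeR 4.0.16 in R 4.3.3 (TMM factors, default filterByExpr, robust quasi-likelihood test). The SE is the size of the log2 fold change over the square root of F. Ratios used limma 3.58.1 with a trend, on log2 CPM of all tested miRNAs less that of the partner strand. Single values were compared by exact two-sided permutation. The scripts were tested on simulated data. No pair of libraries agreed within sampling noise. Named miRNAs were all members, the other strands of the 3 clusters, and the 5 nearest in profile. Markers from the thymocyte, muscle and myeloid lists, and miR-223-5p, are named besides, outside that rule and with their values known. Alternatives covered scaling, filters, DESeq2 1.42.0 (independent filtering at 0.05, a level set after its counts at the default had been seen), limma-voom, prior counts, the replicate block and left-out libraries.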

Additional observations from a re-analysis of the deposited data

How the results depend on the processing

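Apart from the fit with a lone irradiated library, all 6 members stayed lower and past the threshold under every alternative that tested them. For miR-18b-5p and miR-20b-3p, which passed the low-count filter through the control libraries alone, these calls are again not taken as support. Without one library at a time, miR-18b-5p ran from -6.73 to -4.51 and the summed level from -5.38 to -4.22. A minimum mean of 10 CPM left out miR-20b-3p and gave 87 higher calls over all miRNAs, against 144. Exact permutation, where p cannot go under 0.1, put 7 ratios above the threshold: -2.23, -1.53, -2.28, -2.70, -2.36, -1.31 (p 0.2) and -1.65. The ratios of miR-20b-5p to miR-20b-3p and of miR-363-3p to miR-363-5p passed with a prior count of 5 (-2.19 and -1.10) and with no low-count filter (-1.32 and -0.96). With irradiated replicates 2 and 3 left out, a choice made after seeing the data, a lone irradiated library remains and only differences are given. They were -2.35 for miR-20b-3p over miR-20a-3p, -0.61 for miR-363-3p over miR-92a-3p and -0.52 for miR-363-3p over miR-25-3p. The sign changed for miR-18b-5p over miR-20b-5p (0.27) and for miR-20b-5p over miR-20b-3p (0.26). With each library left out in turn, the ratio differences ran from -1.81 to -1.19 (miR-106a-5p over miR-106b-5p), -1.66 to -0.94 (miR-363-3p over miR-92a-3p), 1.18 to 2.10 (miR-106a-5p over miR-18b-5p), -2.01 to -0.29 (miR-20b-5p over miR-20b-3p), -1.25 to -0.70 (miR-363-3p over miR-363-5p) and -0.23 to 0.11 (miR-20b-5p over miR-363-3p, positive without irradiated replicate 2). The causes of these changes were not tested.

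Same-numbered libraries had correlations of deviations of 0.099, -0.024 and 0.23, so the numbers were not taken as pairs. With the replicate block the 6 members stayed lower (miR-106a-5p -4.32), the calls over all miRNAs were 171 lower and 127 higher, and no ratio call changed. Scaling shifted the median over all miRNAs (log2), which was 0.12 for median-of-ratios, -0.13 for library totals, 0.44 for upper-quartile and 0.01 for TMM factors. The share of higher calls was 45.3% with TMM and 59.7% with upper-quartile factors. At 0 to 3 reads per irradiated library, depth limits what miR-20b-3p can show.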
